A study of Mus musculus with 6 samples.

Results

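Pou5f1, Utf1, Dppa2, Dppa4, Dppa5a, Lin28a, Sall4, Tcl1 and Trim28 are 9 genes of the pluripotent state that mouse embryonic stem cells (mESCs) maintain in culture. They were taken by name, with earlier results of these data known, and are 9 of the 27706 protein-coding and lincRNA genes of the mouse annotation. Here they are described by the acetylation of histone H3 on lysine 27 (H3K27ac) at their transcription start sites (TSSs), in their gene bodies and within 50 kb of them. A peak within 1 kb of the TSS of any isoform counted as marking a gene, and an overlap of 1 bp was enough. Of the 22973 peaks found in control cells, 35 lay within 50 kb of these genes, and 9 of the 35 lay at a TSS of one of them.

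H3K27ac was measured by ChIP-seq, in which chromatin fragments carrying the mark are pulled down with an antibody and sequenced. The cells were E14 mESCs, named in the labels as the line E14Tg2A Rosa26-Cre Oct4-IRES-Puro and grown with leukemia inhibitory factor and the inhibitors PD0325901 and CT-99021. Cells received DMSO (control), NVP-2 (100 nM), which inhibits the elongation kinase CDK9, or actinomycin D (800 nM in the sample labels), which binds DNA and blocks RNA polymerases, each for 120 min and each in 2 replicates, with human HEK293T chromatin added to every sample as a spike-in. The list analysed here holds control peaks from both replicates together, as positions with no height or count, so it gives no replicate error, no test was run between samples, and the sequencing depth cannot be read from it. The line name couples a puromycin resistance cassette to Oct4, the product of Pou5f1, so the Pou5f1 locus of these cells may differ from the reference genome on which positions are given (mm10, GRCm38).

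H3K27ac is placed by the acetyltransferases CBP and p300 and is found at active promoters and enhancers, where broad domains often cover genes that define a cell type. In mESCs, Oct4 binds DNA together with Sox2 and sustains a network of transcription factors that keeps the cells undifferentiated. The members act at different levels of this state. Pou5f1 and Sall4 encode transcription factors. Utf1, Dppa2, Dppa4 and Trim28 encode chromatin proteins, Lin28a and Dppa5a encode RNA-binding proteins, and Tcl1 encodes a cofactor of the kinase Akt.

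Of the 9 genes, 8 were marked at a TSS, compared with 43.6% of all genes and 51.0% of protein-coding genes. The exception was Sall4, which had no peak at any of its 4 TSSs. The widest TSS peak of each marked member ranged from 3.39 kb at Lin28a to 34.0 kb at Pou5f1. Their median width was 10.1 kb (n = 8 genes), whereas the median over all 12071 marked genes was 2.30 kb. A TSS peak of at least 10 kb was present at 4 members, Pou5f1, Trim28, Dppa5a and Dppa2, and at 5.14% of all genes or 11.8% of the marked ones.

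**Figure D1:**
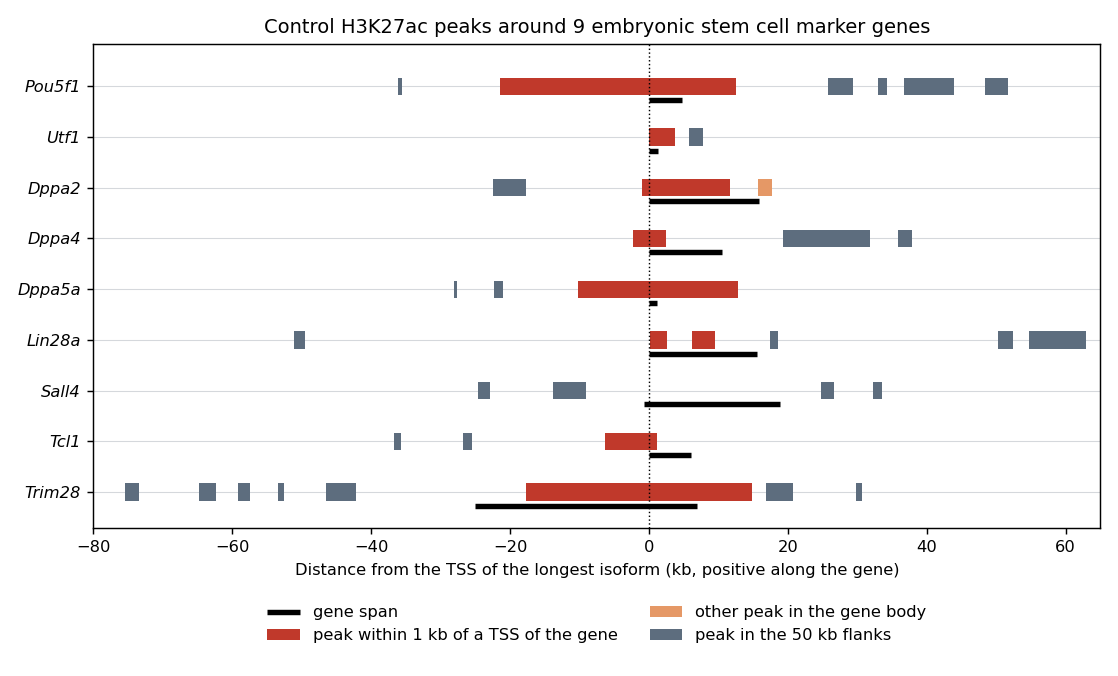
Control H3K27ac peaks around the 9 genes, drawn by their distance in kb from the TSS of the longest isoform, with positive values along the direction of transcription. Red bars are peaks within 1 kb of a TSS of the gene, orange bars are other peaks in the gene body, grey bars are peaks in the 50 kb flanks and black lines are gene spans. The peaks of Pou5f1, Dppa5a and Trim28 reach more than 10 kb to both sides of the TSS, and Sall4 has grey bars alone.

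The promoter bases show where the peak edges fall. RefSeq promoters on GRCm38.p6 were matched by symbol for 5 members, from 250 bases before to 50 bases after the RefSeq TSS. No promoter sequence was matched for Dppa2, Dppa4, Dppa5a and Sall4, although RefSeq transcript starts were available for these genes. The promoters of Pou5f1, Trim28 and Tcl1 lay in their peaks over all 300 bases. At Utf1, 76 of the 300 bases lay in the peak, and at Lin28a 0 of 300. The following stretches lie upstream of the first exon of the coding isoforms, 5′ to 3′ on the strand of the gene, and are shown because these 5 genes differ in whether the peak covers them. Capitals mark the GC box GGGCGG or its reverse complement, a letter match that Sp-family factors are known to bind.
Pou5f1, chr17:35505818-35506017, plus strand: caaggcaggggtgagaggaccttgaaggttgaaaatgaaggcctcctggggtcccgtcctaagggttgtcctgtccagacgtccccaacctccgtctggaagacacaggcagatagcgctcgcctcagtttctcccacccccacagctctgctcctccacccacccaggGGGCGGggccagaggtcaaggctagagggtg
Trim28, chr7:13023952-13024151, plus strand: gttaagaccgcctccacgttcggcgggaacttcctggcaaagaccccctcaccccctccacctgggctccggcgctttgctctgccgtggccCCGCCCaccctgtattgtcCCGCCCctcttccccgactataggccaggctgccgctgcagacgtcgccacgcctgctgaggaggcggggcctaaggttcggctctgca
Tcl1, chr12:105222794-105222987, minus strand: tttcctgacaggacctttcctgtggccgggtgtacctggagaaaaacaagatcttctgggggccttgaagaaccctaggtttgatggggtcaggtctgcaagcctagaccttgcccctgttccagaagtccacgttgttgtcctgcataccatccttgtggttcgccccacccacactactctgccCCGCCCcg
Utf1, chr7:139943606-139943788, plus strand: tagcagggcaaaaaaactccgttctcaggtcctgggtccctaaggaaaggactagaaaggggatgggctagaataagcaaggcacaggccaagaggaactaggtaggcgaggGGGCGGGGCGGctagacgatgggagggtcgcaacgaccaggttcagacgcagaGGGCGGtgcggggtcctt
Lin28a, chr4:134018842-134019041, minus strand: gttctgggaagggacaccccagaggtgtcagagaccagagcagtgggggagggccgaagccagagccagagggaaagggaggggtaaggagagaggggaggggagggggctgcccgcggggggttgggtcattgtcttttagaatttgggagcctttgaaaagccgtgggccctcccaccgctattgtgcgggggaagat

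The stretches of Pou5f1, Trim28 and Tcl1 were inside a peak, and those of Utf1 and Lin28a were outside. Over all 300 bases, G and C made up 62.0% of the promoter of Utf1 and 63.3% of that of Lin28a, beside 62.7% for Pou5f1, 64.0% for Trim28 and 56.7% for Tcl1. The median over all 32851 promoters of the table was 52.7%. A GC box was found on either strand in all 5 of these promoters and in 35.7% of the table, at Lin28a 32 bases after the RefSeq TSS. A further RefSeq promoter of Pou5f1, which lies inside the gene and wholly in the peak, held none, at 45.7% G and C. Utf1 held 4 matches, of which an adjacent pair overlapped by 1 base. No match was found there to 5 other motifs searched on both strands. These were the composite core of a Sox site and an Oct site ATTGTNATG (0.925% of all promoters), the octamer ATGCAAAT (1.74%), the Esrrb element TCAAGGTCA (0.423%), the E-box CACGTG (7.15%) and the TATA box TATAAA (13.6%).

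Pou5f1, which encodes Oct4, lay at chr17:35506018-35510772 on the plus strand (ENSMUSG00000024406.16). All 6 of its annotated TSSs and all 5 exons of the longest isoform were inside a single peak, chr17:35484495-35518536. This peak reached 21.5 kb upstream of the TSS of the longest isoform and 12.5 kb downstream of it, so that 63.2% of its width was upstream. It was wider than the widest TSS peak of 98.5% of the marked genes. The whole gene lay in 1 peak for Pou5f1 and Dppa5a, or 2 of 9 members, compared with 2.72% of all genes.

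The Pou5f1 peak also held the TSSs of Tcf19 and Cchcr1, which lie 10.8 and 11.1 kb downstream of the Pou5f1 TSS, back to back on opposite strands. Tcf19 encodes a PHD-finger protein and was inside the peak over its whole length. A single wide peak therefore cannot be divided between these genes. There were 5 other peaks within 50 kb, for 6 in all, and peaks covered 47.7% of the gene and its flanks. Of all genes, 99.1% had a lower covered share. Farther downstream, the peak of 7.23 kb at chr17:35542706-35549939 overlapped no protein-coding or lincRNA gene, and the peak of 3.37 kb after it lay in Cdsn, which was not marked. The upstream neighbour H2-Q10, a class I histocompatibility gene, was marked by a peak of 0.566 kb.

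Sall4, a zinc-finger transcription factor gene at chr2:168748332-168767943 on the minus strand (ENSMUSG00000027547.17), differed from the other members. It had no peak at a TSS and none in its 19.6 kb gene body. A peak in the gene body was present at the other 8 of 9 members and at 48.3% of all genes. The peak nearest to the TSS of the longest isoform, chr2:168776325-168781054, was 4.73 kb wide and ended 9.12 kb upstream of that TSS. A peak of 1.80 kb followed 22.8 kb upstream of that TSS, and neither overlapped any other gene. On the other side, peaks of 1.78 and 1.33 kb lay at TSSs of the neighbour Atp9a, a phospholipid-transporting ATPase gene. The one of 1.78 kb was the nearest to the Sall4 gene span, 5.92 kb past its 3′ end. These 4 peaks covered 8.06% of Sall4 and its flanks. The list holds peaks that passed the height filter and the open chromatin filter of the authors, and whether the Sall4 promoter failed a filter or had no signal cannot be told apart.

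The 3 relatives of Sall4 were all marked, Sall1 by a peak of 12.7 kb, Sall3 by one of 8.48 kb and Sall2 by one of 1.85 kb. Other genes of the pluripotency network lacked a TSS peak too. Of 18 partner genes, 15 were marked, beside 43.6% of all genes and 51.0% of protein-coding genes. Klf4, Lefty1 and Dppa3 were not marked. The nearest peak was 14.1 kb from a TSS of Klf4, 1.18 kb from that of Lefty1 and 6.21 kb from that of Dppa3.

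Trim28 encodes KAP1, a corepressor that KRAB zinc-finger proteins recruit to silence retrotransposons. Its coding isoform has its TSS at position 13024152 of chromosome 7 on the plus strand (ENSMUSG00000005566.14) and 17 exons, all inside the peak chr7:13006511-13038936 of 32.4 kb. The annotated gene span starts farther upstream, at 12999114, through a transcript that is not protein-coding, and the peak covered 76.8% of it. With the longest isoform in place of the gene span, 3 of 9 members lay wholly in 1 peak, beside 2.79% of all genes.

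The Trim28 peak reached 17.6 kb upstream and 14.8 kb downstream of the TSS. It also held TSSs of Zbtb45, 14.4 kb upstream, and of Chmp2a and Ube2m, 10.7 and 14.1 kb downstream, all on the opposite strand. Chmp2a encodes a subunit of the ESCRT-III membrane remodelling complex and Ube2m encodes the conjugating enzyme of the ubiquitin-like protein Nedd8. Trim28 had 8 peaks within 50 kb of its annotated gene span, the highest number among the members, and 9 neighbouring genes, of which 8 were marked. These counts depend on the upstream extension of the span. Peaks from 52.6 to 75.4 kb upstream of the coding TSS are among those counted. The exception was Slc27a5, a bile acid metabolism gene of the liver, which lies 0.921 kb from the Trim28 gene span. The genes that encode partners of Trim28 in silencing were marked in 7 of 7 cases, beside 43.6% of all genes and 51.0% of protein-coding genes. The TSS peaks of these 7 genes had a median of 11.4 kb. A width of at least 10 kb was reached at 4 of them, beside 5.14% of all genes or 11.8% of the marked ones. Among the 4 were the H3K9 methyltransferase gene Setdb1 (20.1 kb) and the HP1 gene Cbx5 (39.7 kb). The narrower peaks were at Resf1 (8.47 kb), Atf7ip (5.997 kb) and a further HP1 gene, Cbx3 (5.90 kb).

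Dppa2 and Dppa4 encode SAP-domain proteins that act as a heterodimer on chromatin, and their genes lie 9.67 kb apart on the plus strand of chromosome 16. They did not share a TSS peak. The peak of Dppa4 (ENSMUSG00000058550.15), chr16:48281419-48286246, was 4.83 kb wide and nearly centred on the TSS, with 2.32 kb upstream and 2.51 kb downstream, and covered 23.9% of the gene. That of Dppa2 (ENSMUSG00000072419.5), chr16:48302966-48315573, was 12.6 kb wide and lay almost wholly downstream of the TSS of the longest isoform, with 7.47% of its width upstream. The RefSeq TSS of Dppa2, at 48310274, was farther inside the same peak, so the side on which the peak lay depends on the annotation. The peak covered the first 5 of 8 exons of the longest isoform. A further peak of 1.99 kb started in exon 8 and reached 1.84 kb past the 3′ end of Dppa2. No other protein-coding or lincRNA gene lay within 50 kb of the pair, and their 3 peaks were the same for both.

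Utf1 encodes a chromatin-bound transcription cofactor of undifferentiated cells and spans 1.32 kb on chromosome 7 (ENSMUSG00000047751.9, plus strand). Its peak, chr7:139943830-139947467, started 41 bp downstream of the GENCODE TSS, covered 96.9% of the gene and ended 2.36 kb past its 3′ end. The RefSeq TSS, at 139943856, was inside the peak. A second peak of 2.06 kb lay 4.41 kb downstream of the gene. None of the 4 neighbours was marked, including Kndc1, which lies 2.25 kb upstream of Utf1. The covered share of Utf1 and its flanks was 5.62%, the lowest of the members.

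Dppa5a and Lin28a are the members that act on RNA. Dppa5a, a KH-domain protein gene of 1.13 kb (ENSMUSG00000060461.5, minus strand), lay wholly in the peak chr9:78355362-78378448 of 23.1 kb. The peak reached 10.3 kb upstream and 12.8 kb downstream of the TSS, and its ends lay within 1 kb of a TSS of Ooep, a gene of the oocyte and early embryo, and of Gsta2, a glutathione transferase gene. The 2 other peaks within 50 kb were both upstream, and the farther one, of 0.480 kb, lay at a TSS of Ddx43.

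Lin28a encodes the protein that blocks maturation of let-7 microRNAs. It was the one member with 2 TSS peaks, at chr4:134016184-134018755 (2.57 kb) and chr4:134009313-134012700 (3.39 kb), in ENSMUSG00000050966.9 on the minus strand. The first began 86 bp downstream of the TSS of the longest isoform. The second was wholly in intron 2 and held the TSSs of 2 shorter isoforms. The TSS of the longest isoform was inside a peak for 6 of 9 members, compared with 37.5% of all genes, and Utf1, Lin28a and Sall4 were the other 3. Lin28b, the paralogue of Lin28a, was not marked, and the peak nearest to one of its TSSs was 108 kb away.

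Tcl1 activates the kinase Akt and lay at chr12:105216750-105222793 on the minus strand (ENSMUSG00000041359.14). Its peak, chr12:105221539-105229079, was 7.54 kb wide, with 84.1% of its width upstream of the TSS and exon 1 of 4 covered. The related genes Tcl1b3, Tcl1b4 and Tcl1b5 within 50 kb were unmarked, and so were Tcl1b1 and Tcl1b2 farther away. Of 15 relatives of the members, chosen by symbol, 6 were marked, or 40.0%, beside 43.6% of all genes and 51.0% of protein-coding genes.

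**Figure D2:**
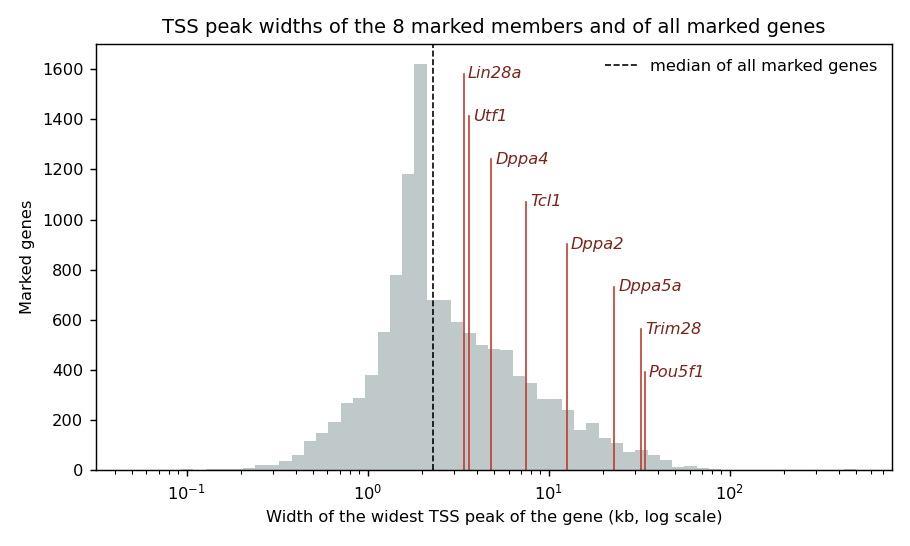
Widths in kb, on a log scale, of the widest TSS peak of the 12071 marked genes (grey bars, number of genes) and of the 8 marked members (red lines). All 8 members lie to the right of the median of 2.30 kb, from Lin28a at 3.39 kb to Pou5f1 at 34.0 kb.

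The 8 marked members were ordered by TSS peak width as Pou5f1 (34.0 kb), Trim28 (32.4 kb), Dppa5a (23.1 kb), Dppa2 (12.6 kb), Tcl1 (7.54 kb), Dppa4 (4.83 kb), Utf1 (3.64 kb) and Lin28a (3.39 kb). Without replicate peak lists, the error of these widths is unknown, and genes next to each other in this order cannot be ranked with confidence. The authors joined peaks within 2 kb of each other, so a wide peak may hold several smaller ones. The share of the width upstream of the TSS ranged from 84.1% at Tcl1 to 0% at Utf1 and Lin28a, with 54.4% at Trim28, 48.0% at Dppa4 and 44.5% at Dppa5a between them.

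Each member had at least 1 peak within 50 kb, as did 70.9% of all genes. Counted from the annotated gene spans, the number ranged from 2 at Utf1 to 8 at Trim28, with a median of 3 beside 2 over all genes. The median covered share of the gene and its flanks was 16.8% for the members and 3.02% for all genes. Dppa4 (17.6%), Dppa2 (16.8%) and Lin28a (15.7%) lay in the middle of the members. The 26 peaks that were at no TSS of a member had a median of 1.79 kb and a widest of 8.20 kb. The median was 7.54 kb for the 9 TSS peaks of members and 2.30 kb for the widest TSS peaks of all marked genes. Of these 26, 13 lay at a TSS of another gene and 13 at none.

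**Figure D3:**
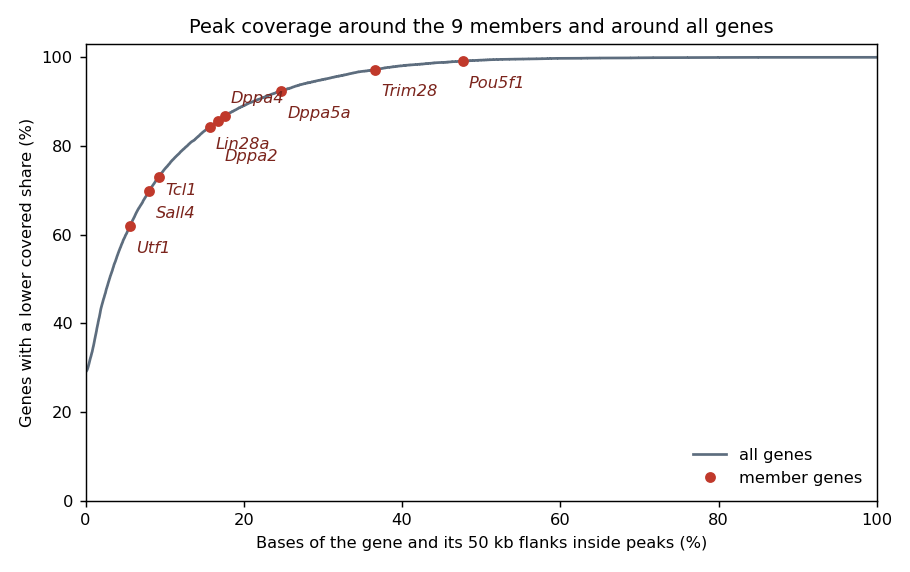
Share of bases inside peaks in each gene and its 50 kb flanks (x axis, %) against the percent of all 27706 genes with a lower share (y axis), as a line for all genes and red points for the members. Utf1 lies lowest at 5.62% and Pou5f1 highest at 47.7%.

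The members had 30 distinct neighbours within 50 kb that were not members themselves, and 19 of these were marked, beside 43.6% of all genes and 51.0% of protein-coding genes. Of the 19, 7 shared a TSS peak with a member, all at Pou5f1, Dppa5a and Trim28. The members' own wide peaks thus enter this count again, and 19 of 30 is no separate result about the neighbours. The 3 genes with shared peaks are also 3 of the 4 with TSS peaks of at least 10 kb, and Dppa2 had a wide peak that held no other TSS. Marking of neighbours differed from locus to locus, with 4 of 5 marked at Pou5f1, 3 of 4 at Dppa5a and at Lin28a, 0 of 4 at Utf1 and 0 of 3 at Tcl1.

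**Figure D4:**
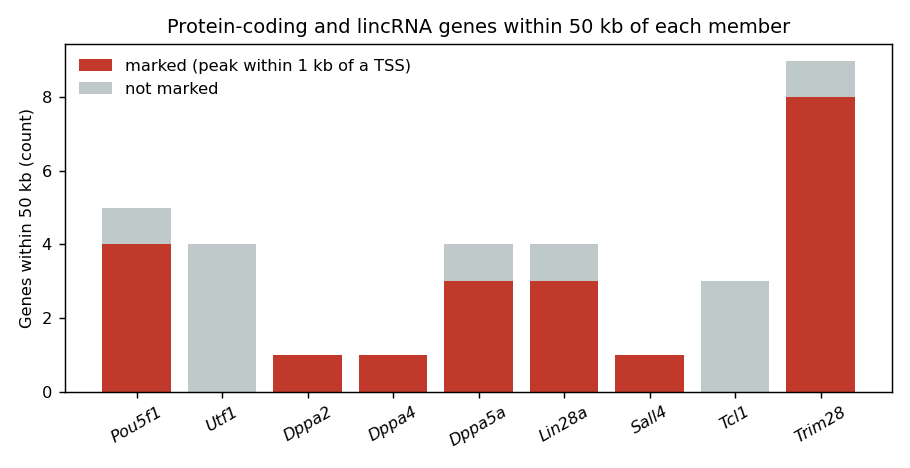
Number of protein-coding and lincRNA genes within 50 kb of each member, split into marked (red) and not marked (grey) genes. Trim28 has 9 neighbours with 8 marked, and Utf1 and Tcl1 have none marked.

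The share of G and C was below the median of all 10778 TSS peaks, 53.0%, in 7 of the 9 member TSS peaks, among them the 4 of at least 10 kb. It was 48.8% in the Pou5f1 peak, 50.3% in that of Trim28, 45.6% in that of Dppa5a and 44.1% in that of Dppa2. Among the narrower peaks it was 45.1% at Dppa4, 46.5% at Tcl1 and 49.7% in the intron 2 peak of Lin28a. The peak of Utf1 (54.0%) and the other peak of Lin28a (57.0%) lay above the median. CpG dinucleotides were present at 0.238 of the number expected from base composition in the Pou5f1 peak, at 0.239 in that of Dppa5a at 0.209 in that of Dppa2, at 0.254 in that of Dppa4 and at 0.326 in that of Tcl1, beside a median of 0.565. Trim28, which is expressed in most tissues, had 0.389, and Utf1 had the highest value of the members at 0.539. Repeats, marked in lower case in the genome file, made up 42.1% of the Dppa2 peak, 41.2% of that of Dppa4, 39.0% of that of Dppa5a and 37.9% of that of Pou5f1, beside a median of 13.1%. Trim28 (29.0%), Tcl1 (23.8%) and the intron 2 peak of Lin28a were above the median too, or 7 of the 9 peaks in all, whereas Utf1 (11.5%) and the other Lin28a peak (9.25%) were below the median. These values were not adjusted for peak width.

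The composite core ATTGTNATG occurred 9 times in 5 of the 9 member TSS peaks, or 0.0725 matches per kb, beside 0.0248 per kb in all TSS peaks, of which 8.83% held a match. The counts are small and were not tested. The other motifs searched all had fewer matches per kb in the member peaks than in all TSS peaks. The Esrrb element had 0.0242 beside 0.0405, the E-box 0.153 beside 0.183 and the TATA box 0.548 beside 0.593. The octamer and the GC box are given below. Of the 9 composite core matches, 4 lay in the Dppa5a peak. Among TSS peaks of 0.8 to 1.25 times the width, a match was present in 46.6% of 223 for Dppa5a and in 68.7% of 131 for Pou5f1, whose peak held 1. The Utf1 peak held 1 match, and 8.14% of TSS peaks of like width held any. The Dppa4 peak held 2, and 11.0% of TSS peaks of like width held any. The Tcl1 peak held 1, where the share was 18.6%. Trim28 held none where 65.2% of TSS peaks of like width held a match, and Dppa2 none where 29.0% did. Neither Lin28a peak held a match, where 6.78% and 5.32% did. For each of the 5 genes 1 match is shown as an example, each on the strand of the match, with the 9 letters of the core in capitals.
Pou5f1, chr17:35511385-35511414, plus strand: ctctaggctaaATTGTTATGcttctattct
Utf1, chr7:139945675-139945704, minus strand: atgagccgtcATTGTTATGctagtgaagtg
Dppa5a, chr9:78368848-78368877, plus strand: aaagctggtcaATTGTCATGtaaagagtga
Tcl1, chr12:105227904-105227933, plus strand: ctcttgtactgATTGTCATGttgttttatc
Dppa4, chr16:48284464-48284493, plus strand: agccggtccctATTGTGATGggagagaact

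The match at Utf1 lay 1.90 kb downstream of the TSS, past the 3′ end of the gene but inside its peak. That at Pou5f1 lay 5.38 kb downstream of its TSS, between Pou5f1 and Tcf19. At Tcl1 the match was 5.18 kb upstream, at Dppa5a 0.686 kb upstream and at Dppa4 0.744 kb downstream in an intron. The other match at Dppa4 was the nearest of all 9 to a TSS, 0.071 kb upstream. The other 3 matches at Dppa5a lay 8.63 kb upstream and 7.52 and 8.66 kb downstream. A match of letters does not show that a factor binds there.

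The octamer ATGCAAAT, the sequence that Oct proteins bind, occurred 5 times in 4 member peaks, or 0.0403 per kb, close to 0.0465 per kb in all TSS peaks, of which 14.4% held a match. Among TSS peaks of like width a match was present in 77.9% for Pou5f1, 76.3% for Trim28, 44.4% for Dppa2 and 9.26% for the Lin28a peak with the match. Dppa2 held 2 matches in an intron, 0.491 and 0.692 kb downstream of the TSS of the longest isoform and upstream of the RefSeq TSS. Lin28a held 1 in an intron, 2.28 kb downstream, and Trim28 held 1, 9.23 kb upstream. The matches of these 3 genes are printed with the octamer in capitals because their TSS peaks lack the composite core. The fifth match lay in an exon of Pou5f1, 3.97 kb downstream of its TSS.
Dppa2, chr16:48304384-48304413, plus strand: aatgcttactaATGCAAATttattttattt
Dppa2, chr16:48304585-48304614, plus strand: ccagcccactaATGCAAATttaaagaacta
Lin28a, chr4:134016542-134016571, plus strand: atcattcacatATGCAAATgagatgggggg
Trim28, chr7:13014905-13014934, plus strand: gtgaggtggtgATGCAAATgtttagtgcca

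GC boxes numbered 61 in the 9 peaks, or 0.491 per kb, beside 1.06 per kb in all TSS peaks. Set against TSS peaks of like width, members lay on both sides of the median. The Pou5f1 peak held 19 and that of Trim28 held 17, where the medians of peaks of like width were 12 and 10, while the Dppa5a peak held 3 where the median was 9 and the Dppa2 peak 2 where it was 6.

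The partner genes of the pluripotency network were also mostly under wide peaks. The median TSS peak of the 15 marked partners was 23.7 kb, against 10.1 kb for the 8 members and 2.30 kb for all marked genes. A TSS peak of at least 10 kb was present at 14 partners, beside 5.14% of all genes or 11.8% of the marked ones. Klf5 (79.2 kb), Tfcp2l1 (71.8 kb) and Esrrb (63.0 kb), transcription factors of the naive state, had the widest of the partner peaks. Nanog had 36.0 kb and Sox2, whose protein binds DNA with Oct4, had 19.7 kb, beside 34.0 kb at Pou5f1. Genes associated with the later, primed state were marked in 4 of 6 cases, beside 43.6% of all genes and 51.0% of protein-coding genes. These were Otx2 (18.1 kb), Zic2 (17.7 kb), Dnmt3b (3.48 kb) and Lef1 (2.08 kb), while Fgf5 and Pou3f1 were not marked.

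Markers of other cell types were checked because feeder cells or differentiated cells would add their own peaks. Of 22 markers, 7 were marked, or 31.8%, beside 43.6% of all genes and 51.0% of protein-coding genes. These were 3 of 5 primitive endoderm genes, 2 of 5 trophoblast genes, 1 of 6 mesoderm and neural genes and 1 of 6 fibroblast genes. Tfap2c, which is also known in germ cells, had the one TSS peak of at least 10 kb (10.6 kb). The fibroblast collagen genes Col1a1 and Col1a2 had no TSS peak, and the marked Twist1 had one of 0.476 kb. Of the 10 embryonic stem cell markers checked, which are 8 members without Trim28 plus Nanog and Sox2, 9 were marked.

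**Figure D5:**
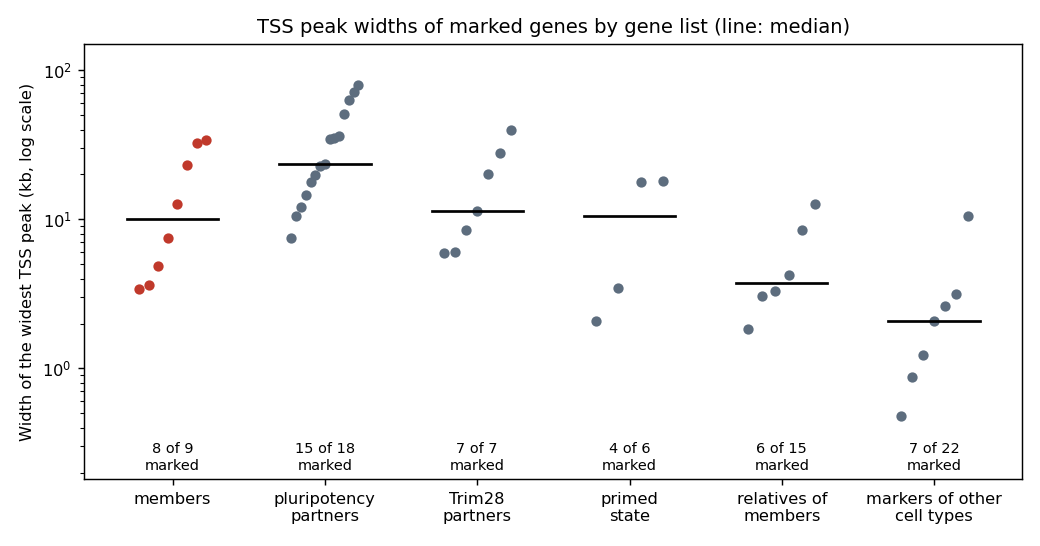
Width in kb, on a log scale, of the widest TSS peak of each marked gene (points) by gene list, with the median as a line and the number of marked genes of all listed below. The members have 8 of 9 genes marked and a median of 10.1 kb, and the pluripotency partners have 15 of 18 marked and a median of 23.7 kb.

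For Pou5f1, the genes with the most similar peaks were sought among 11146 marked protein-coding genes by distance over 4 measures, each scaled to its standard deviation. The measures were the log2 width of the widest TSS peak, the share of the gene in peaks, the number of peaks within 50 kb and the covered share of the gene and its flanks. The nearest were Mindy1 (distance 0.215), Hsd17b14 (0.257), Mylpf (0.290), Mlec (0.352) and Cisd3 (0.468). All 5 were covered over their whole length, with TSS peaks from 25.8 kb at Mylpf to 37.1 kb at Cisd3. None of the 5 is a member or belongs to the partner list.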

How the data were processed

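The authors trimmed reads with Cutadapt, aligned them with bwa meme to mm10 joined to a human genome, dropped duplicates (Picard 2.9.1) and reads of low mapping quality (SAMtools 1.4), called peaks by LanceOtron, joined those within 2 kb with Bedtools, and filtered by height and by distance to ATAC-seq summits (versions per the submitters' processing notes). The deposited file gives chromosome, start and end of each control peak, pooled over both replicates, and no signal values.

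Genes were taken from GENCODE M21 (GRCm38), an earlier release than the study's, with 67283 protein-coding and lincRNA transcripts of 27706 genes. Promoter sequences came from RefSeq rather than from the longest isoform. The members and gene lists were chosen with earlier results of these data known. Besides the 9 genes, the text names genes in their peaks, their nearest coding neighbours, relatives, the gene lists and the 5 genes most like Pou5f1. H2-Q10, Tcf19 and Cchcr1 fell under these rules, and Cdsn was named after its value was seen. Overlap functions were tested on simulated peaks. The tools were Python 3.11.15 with matplotlib 3.10.9, scipy 1.17.1, pandas 2.3.3 and numpy 2.4.6. Treated samples were not analysed here.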

Additional observations from a re-analysis of the deposited data

How the results depend on the processing

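Of 29 alternatives for 9 results, 21 left the result as it was by the limits used, a count within 1.5 times, a median within 1% or a share within its 95% Wilson interval (43.0% to 44.2%, counting error only). Sall4 was unmarked under each of the alternatives run for the TSS, windows of ±500 bp and ±2 kb included. The number of marked members was 7 where the TSS base itself had to lie in a peak (40.4% of all genes), and the number with a TSS peak of at least 10 kb was 5 at a limit of 5 kb (11.3% of all genes) and 3 at 20 kb (1.73%). The median number of peaks near a member was 2 within 25 kb and 7 within 100 kb, and the median covered share was 28.8% and 14.2%. Joining peaks within 5 kb of each other raised the median width to 14.0 kb (14021.5 bp). The share of all genes marked was 51.0% among protein-coding genes, 44.6% at ±2 kb and 41.7% with the longest isoform alone. RefSeq starts, added after the data were seen, gave 8 marked members and 7 with a TSS inside a peak. No paired analysis was possible because the list pools both replicates, and for the same reason no replicate could be left out. The list gives no depth, so a weak peak at an unmarked promoter could not be looked for.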
